A study of Homo sapiens with 6 samples.

Results

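Respiratory complex I, the NADH:ubiquinone oxidoreductase of the inner mitochondrial membrane, was followed across its nuclear and mitochondrial genes in HCT116 cells expressing either form of the splicing factor PHF5A. The genes were taken by symbol from the deposited table of 60675 rows: names starting with NDUFA, NDUFB, NDUFC, NDUFS, NDUFV or MT-ND, without NDUFAB1, without hyphenated names outside the mitochondrial genome and without pseudogene names ending in P and digits. Of 52 such rows, 50 reached an FPKM of 1 in 3 or more of the 6 libraries and were selected on that, 43 encoded in the nucleus and 7 in mitochondrial DNA. FPKM counts fragments scaled to transcript length and to the mapped fragments of the library, so it can be compared between genes as a level per length. Because the genes were chosen by their FPKM values in these 6 libraries, that they were detected is a property of the choice. The threshold ignored the group, but each group holds 3 libraries, so it could keep a gene on 1 group alone. Among the 50 genes none was kept in that way: 49 were at an FPKM of 1 or more in all 6 libraries, and NDUFAF6 in 5.

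HCT116 is an established human colon cancer cell line. One group of 3 libraries (WT 1 to 3) came from HCT116 cells that stably expressed wild-type PHF5A, and the other (K29Q 1 to 3) from HCT116 cells that stably expressed PHF5A with lysine 29 replaced by glutamine, a residue commonly used as a stand-in for acetylated lysine. Both groups were grown in DMEM with serum, and total RNA was sequenced. The labels do not say whether the introduced gene sat beside an intact endogenous one, whether a line was 1 clone, or whether the 3 libraries of a group were separate cultures, so the p-values speak of the spread among the sequenced libraries, part or all of which may be technical. PHF5A stood at 33.1 ± 1.06 FPKM in WT against 44.1 ± 2.38 in K29Q (SD, 3 libraries each), a total that does not tell the forms apart.

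Complex I takes electrons from NADH and passes them through a flavin and a chain of iron–sulfur clusters to ubiquinone, while pumping protons across the membrane. Its matrix arm carries the redox centres and its membrane arm the proton channels. The core of the membrane arm is encoded by mitochondrial DNA and everything else by the nucleus, so its assembly draws on transcripts from both genomes. Accessory subunits surround the core, and assembly factors bind the intermediates without staying in the finished enzyme.

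Library facts that touch these results were few. FPKM sums lay between 249034 and 253451. The depth is not stated, and steps in the values of single-exon genes put the deepest library at 1.18 times the shallowest. The column headers carry 2 different codes and do not say what they stand for. They are treated here as 2 sequencing runs. Run A held WT 2, K29Q 1 and K29Q 2, and run B held WT 1, WT 3 and K29Q 3. WT 1 stood apart from its group on the first principal component of all genes, which held 34.1% of the variance. Its score was −4.72, where WT 2 had 13.2 and WT 3 had 18.0, while the K29Q libraries ran from −14.9 to −4.76. Of 8 markers of colon epithelium, 6 were at an FPKM of 1 or more in every library, with sums of 1248 to 1409 in WT and 1147 to 1201 in K29Q. VIL1 reached at most 0.181, and CLDN4 was below 1 in 3 libraries. Markers of endothelium (4 of 4) and leukocytes (6 of 6) were below 1 everywhere. So were 5 of 6 fibroblast markers, with DCN and LUM listed at 0 and COL1A1 at 4.35 to 5.93.

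The sequences below come from the references and show motifs that some of these genes carry, which the naming rule did not use. Promoters in RefSeq (GRCh38.p14, 250 bases before to 50 after each start) were matched for 36 of the 43 nuclear genes. The motif AAGATGGCG, a form of the YY1 site, was found on either strand in 6 of the 36 (16.7%) and in 583 of 27305 genes with a promoter (2.14%). The motif GCGCATGCG, from the core of the NRF1 site, was found in 5 of 36 (13.9%) against 638 of 27305 (2.34%). The ETS core CCGGAAG was found in 6 of 36 (16.7%) against 12.2% of all genes, and the ERR site TCAAGGTCA in 0 of 36 against 0.432%. No match to one motif overlapped a match to another in these genes, and a match describes letters, not binding. The 6 windows with AAGATGGCG in capitals, each on the gene's own strand, show that it began 11 to 26 bases after the annotated start in every case.
NDUFA9 (chr12:4649114-4649143, plus strand): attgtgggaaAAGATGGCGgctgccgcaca
NDUFA7 (chr19:8321342-8321371, minus strand): tcgcggacggAAGATGGCGtccgccacccg
NDUFB8 (chr10:100529835-100529864, minus strand): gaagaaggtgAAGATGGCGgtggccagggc
NDUFS7 (chr19:1383914-1383943, plus strand): ggccgaggccAAGATGGCGgtgctgtcagg
NDUFS4 (chr5:53560650-53560679, plus strand): tgcctgcagcAAGATGGCGgcggtgtcaat
NDUFA6 (chr22:42090728-42090757, minus strand): atgctttggcAAGATGGCGgggagcggcgt
The windows with GCGCATGCG, or in NDUFS7 its reverse complement, follow with the match in capitals. The first capital lay before the annotated start, from −159 in NDUFB4 to −4 in NDUFA8, where the match ran across the start.
NDUFB4 (chr3:120596167-120596196, plus strand): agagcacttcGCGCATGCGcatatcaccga
NDUFA5 (chr7:123557957-123557986, minus strand): tatgcccatcGCGCATGCGtcaatttttct
NDUFS7 (chr19:1383823-1383852, plus strand): ttccggtttcCGCATGCGCtccgagccgct
NDUFS6 (chr5:1801351-1801380, plus strand): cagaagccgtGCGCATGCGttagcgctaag
NDUFA8 (chr9:122159764-122159793, minus strand): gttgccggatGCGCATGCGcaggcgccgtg
In the mitochondrial genome, MT-ND4L and MT-ND4 overlap. The end of MT-ND4L (GRCh38, chrM:10737-10766) and the start of MT-ND4 (chrM:10760-10789), from GENCODE 29 transcripts, share the 7 bases in capitals, so a fragment crossing them belongs to both genes.
MT-ND4L, last bases: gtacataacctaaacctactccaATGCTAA
MT-ND4, first bases: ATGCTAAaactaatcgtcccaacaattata

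The levels of complex I transcripts spread widely, with the mitochondrial genes on top. Averaged over the 6 libraries, the 7 MT-ND genes ran from 1112.5 FPKM for MT-ND1 to 4452 for MT-ND3. NDUFS5, an accessory subunit on the intermembrane face, led the nuclear genes at 388.9 FPKM, followed by NDUFB7 at 83.9, NDUFA1 at 76.0 and NDUFA8 at 73.8. NDUFB7 (77.9) was below NDUFA1 (80.1) in WT 1 and above it in every other library, so the order of these neighbours did not hold in all 6. The 7 nuclear core subunits ran from 7.48 FPKM for NDUFS1 to 24.8 for NDUFV2, with a median of 11.4, against medians of 15.3, 26.7 and 34.3 for the accessory subunits of the matrix, proximal and distal parts. The lowest gene was the assembly factor NDUFAF6, at 1.22 FPKM. Of the 50 genes, 45 lay above the median of all 13261 genes past the same threshold, and 37 had a mean FPKM of at least 10.

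**Figure D1:**
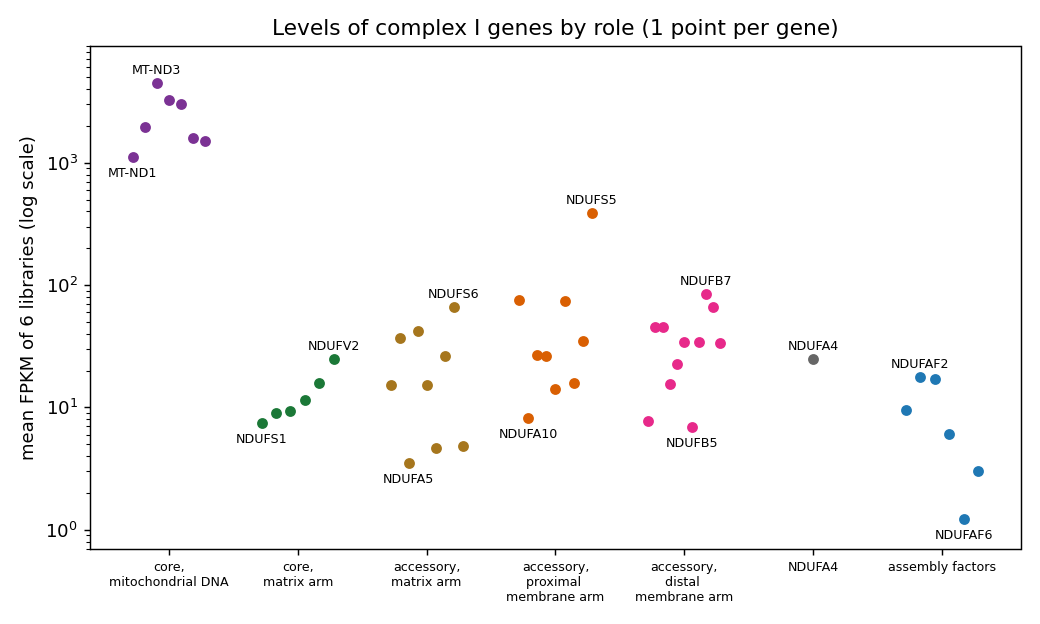
Mean FPKM over the 6 libraries for 49 of the 50 genes (y axis, log scale), with 1 point per gene and genes placed by role (x axis); the highest and lowest gene of each role are named. The MT-ND genes lie between 1112.5 and 4452 FPKM, above NDUFS5 at 388.9.

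The FPKM threshold passed between 2 assembly factors. NDUFAF6 was just inside, with 1.35, 0.998 and 1.15 FPKM in WT 1 to 3 and 1.17, 1.15 and 1.48 in K29Q 1 to 3. NDUFAF5, which hydroxylates an arginine of NDUFS7, was just outside, with 0.862, 0.867 and 0.852 FPKM in WT and 0.902, 0.948 and 1.08 in K29Q. NDUFA4L2, a hypoxia-induced relative of NDUFA4, was the other gene left out, with 0.419, 0.419 and 0.520 FPKM in WT and 0.404, 0.295 and 0.453 in K29Q. Its groups overlapped.

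The comparison of K29Q with WT asks which transcripts differ between the cells expressing the K29Q form of PHF5A and those expressing the wild-type form. None of the 50 complex I genes passed the threshold over all genes (limma on log2(FPKM + 1), Benjamini-Hochberg adjusted p of 0.05), where 7 of 13261 genes passed (0.0528%, made up of 0.0302% with K29Q higher and 0.0226% with WT higher). The smallest adjusted p among them was 0.324 (limma). At an unadjusted p under 0.05 stood 7 complex I genes, or 14.0%, where 12.5% of all genes stood. All 7 were lower in K29Q, against 4.89% of all genes lower and 7.65% higher at that level. Of the 50 genes, 38 (76.0%) had a log2 difference below 0, against 49.0% of all genes, and the median was −0.07 against 0.003. The groups did not overlap for 7 genes with K29Q lower (14.0%, against 9.0% of all genes) and for 2 with K29Q higher (4.0%, against 8.8%). Leaving out 1 library moved the count of 7 by more than 1.5 times in 3 cases: 4 genes without WT 2, 4 without K29Q 1 and 2 without K29Q 3. Without WT 1 it was 10, of which 9 were lower. The share of all genes lower at that level moved as well, from 4.89% to 3.3% without WT 2 and 4.70% without K29Q 1. It was 2.99% without K29Q 3 and 6.07% without WT 1.

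**Figure D2:**
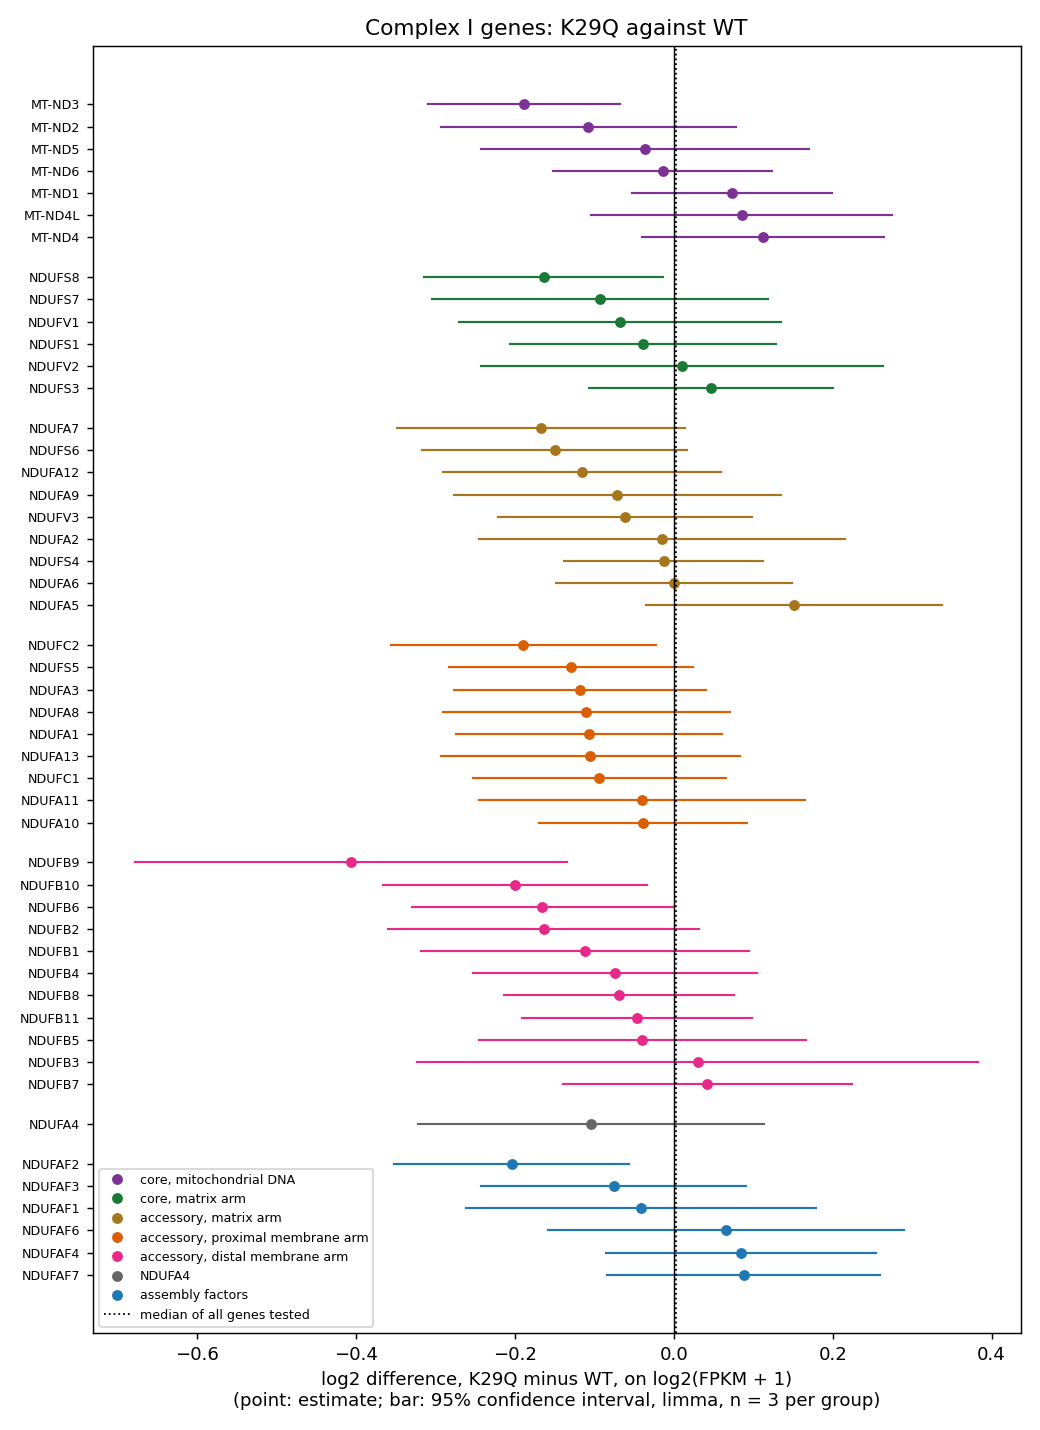
Log2 difference, K29Q minus WT, on the log2(FPKM + 1) scale (x axis) for 49 of the 50 genes, ordered within roles (y axis); points are limma estimates, bars 95% confidence intervals, and the dotted line the median of all genes tested. NDUFB9 lies lowest at −0.41 and NDUFA5 highest at 0.15, and most points lie to the left of 0.

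The 7 core subunits of mitochondrial DNA split into genes above and genes below 0, with a median log2 difference of −0.014. MT-ND3, a small core subunit at the hinge between the arms, had 4752, 4621 and 4858 FPKM in WT 1 to 3 and 4058, 4238 and 4186 in K29Q 1 to 3. All 3 K29Q libraries lay below all 3 WT libraries, with 0.877 of the WT mean and a log2 difference of −0.19 (SE 0.051, 95% confidence interval −0.31 to −0.07, limma adjusted p = 0.324). It was −0.16 within run A and −0.20 within run B, and −0.27 after a correction that removed, library by library, the part of the values that followed GC content and length. Under quantile normalization it was 0, because MT-ND3 held the same rank in all 6 libraries and that method gives equal ranks equal values. MT-ND3 (ENSG00000198840) is a coding gene of chrM:10059-10404, plus strand.

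MT-ND4, one of the proton-pumping subunits, lay on the other side. Its FPKM was 3248, 3296 and 2905 in WT and 3368, 3380 and 3452 in K29Q, so the groups did not overlap and WT 3 was the lowest library. The log2 difference was 0.11 (SE 0.064, 95% confidence interval −0.04 to 0.26, limma adjusted p = 0.501), and 0.06 without WT 3. It was 0.03 within run A and 0.17 within run B. MT-ND4L, which shares a transcript with MT-ND4, had 3171, 3026 and 2641 FPKM in WT and 2973, 3209 and 3172 in K29Q. Here the groups overlapped, and WT 3 was again the lowest. The ratio of MT-ND4 to MT-ND4L was 1.07 ± 0.0409 (SD, n = 3) in WT, and 1.09 ± 0.0400 (SD, n = 3) in K29Q. The ratio of MT-ND4 to MT-ND3 was 0.684, 0.713 and 0.598 in WT and 0.830, 0.797 and 0.825 in K29Q. That ratio was picked after its values were seen, and its groups did not overlap. A common factor per library leaves it as it is, but quantile normalization does not: there MT-ND3 was at 0 and MT-ND4 at 0.03.

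The other 4 mitochondrial genes also stayed short of the threshold. MT-ND1, whose protein lies next to the ubiquinone site, had 1112, 1089 and 1051 FPKM in WT and 1172, 1137 and 1113 in K29Q, with the highest WT and lowest K29Q libraries nearly touching (log2 difference 0.07, limma adjusted p = 0.584). MT-ND2, a proton-pumping subunit, had 2143, 2139 and 1827 FPKM in WT and 1805, 1906 and 1948 in K29Q (−0.11, limma adjusted p = 0.585). WT 3 lay within the K29Q range and the other WT libraries above it, and the MT-ND2 difference was −0.18 without WT 3, −0.07 without WT 1 or WT 2, −0.21 within run A and −0.02 within run B. MT-ND5 had 1780, 1433 and 1589 FPKM in WT and 1604, 1479 and 1583 in K29Q, and MT-ND6, the only one on the minus strand, 1538, 1424 and 1574 against 1482, 1520 and 1486. Both overlapped fully. Whether the counting used strand is not given in the sources used here, so reads of MT-ND6 and of RNA opposite it cannot be told apart.

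**Figure D3:**
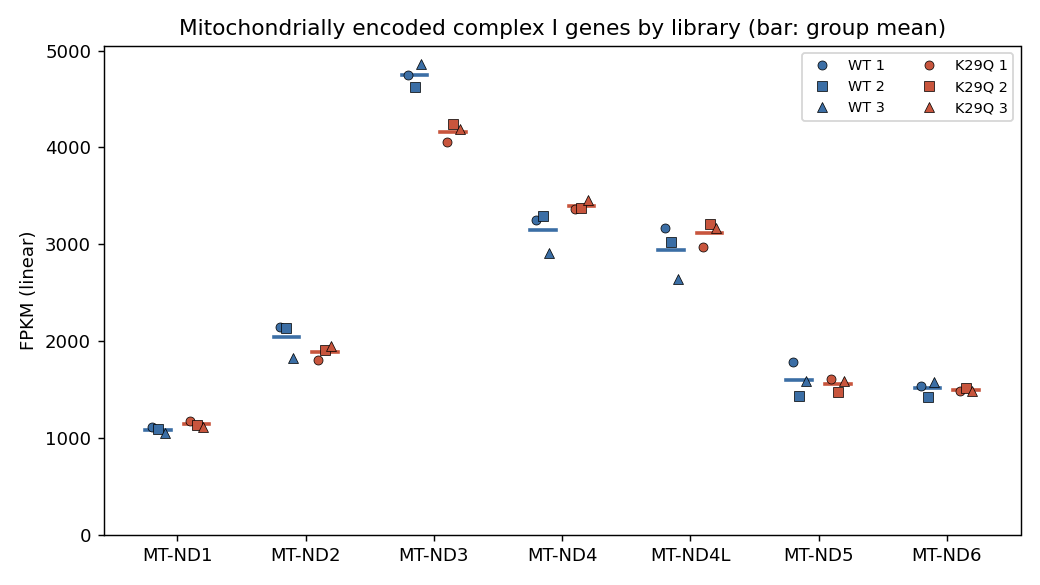
FPKM (y axis, linear, from 0) of the 7 mitochondrially encoded complex I genes in each library; blue marks are WT, red marks K29Q, the shape gives the replicate number and the bar the group mean. MT-ND3 shows K29Q at 4058 to 4238 below WT at 4621 to 4858, and MT-ND4 shows K29Q at 3368 to 3452 above WT at 2905 to 3296.

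Taken as a sum, the MT-ND genes held 6.78 ± 0.306% of a library's FPKM in WT against 6.70 ± 0.105% in K29Q (SD, n = 3 each), and the groups overlapped. The 43 nuclear genes held 0.594 ± 0.0157% and 0.558 ± 0.0150%. The ratio of the mitochondrial to the nuclear sum was 12.3, 11.1 and 10.8 in WT 1 to 3 and 11.9, 11.7 and 12.4 in K29Q 1 to 3. WT 1 lay among the K29Q libraries.

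The other genes of the mitochondrial genome all lay above 0, 8 of 8, with a median log2 difference of 0.07. Within run A 3 of the 8 lay below 0 and the median was 0.04, and within run B 0 lay below 0 and it was 0.12. None passed over all genes, and 1 was at an unadjusted p under 0.05. That was MT-RNR2, the large ribosomal RNA, with 2179, 1966 and 1887 FPKM in WT and 2393, 2531 and 2341 in K29Q (log2 difference 0.27, SE 0.071, limma adjusted p = 0.318). MT-ATP8, a subunit of the ATP synthase, had 2457, 2624 and 2548 against 2771, 2714 and 2814 (0.12, limma adjusted p = 0.403). Genes named MT- as a whole held 18.2 ± 1.07% of the FPKM in WT and 19.6 ± 0.375% in K29Q, and WT 1 (19.2%) overlapped with K29Q. Scaling the libraries to the genes outside the mitochondrial genome moved the median of all genes from 0.003 to 0.03 and that of the MT-ND genes from −0.014 to 0.02.

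Nuclear copies of mitochondrial sequence can share reads with the MT-ND genes. Of 209 rows named as such copies, 7 reached an FPKM of 1 in some library. MTND2P28 was the highest, with 399.6, 396.2 and 369.3 FPKM in WT and 319.7, 326.7 and 343.0 in K29Q, so its groups did not overlap and K29Q was lower, while those of MT-ND2 overlapped. MTND1P23 had 43.7, 42.4 and 40.7 FPKM in WT and 35.6, 32.2 and 42.6 in K29Q. How reads were divided between these copies and the mitochondrial genes was not tested.

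The 7 nuclear core subunits carry the flavin and the iron–sulfur clusters of the matrix arm. Of these 5 lay below 0 and 2 above, with a median log2 difference of −0.04, and 0 passed over all genes by limma (1 had an unadjusted p under 0.05). Beside the counts by role, here and below, 49.0% of all genes lay below 0. At an unadjusted p under 0.05 stood 12.5% of all genes, 4.89% of all genes being lower. NDUFS8, an iron–sulfur subunit that leads electrons towards ubiquinone, had 11.8, 12.6 and 11.99 FPKM in WT 1 to 3 and 11.2, 10.7 and 10.2 in K29Q 1 to 3. The groups did not overlap, and the log2 difference was −0.16 (SE 0.064, 95% confidence interval −0.31 to −0.01, limma adjusted p = 0.389). It was −0.18 within run A, −0.21 within run B and −0.11 after GC and length correction. NDUFS8 (ENSG00000110717) lies on chr11:68030617-68036644, plus strand, and codes for protein.

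The other core subunits described here overlapped between the groups. NDUFV1, which binds NADH and the flavin, had 15.3, 18.5 and 15.2 FPKM in WT and 15.9, 15.2 and 15.4 in K29Q, with WT 2 alone standing high. Its partner NDUFV2 had 26.0, 27.2 and 21.1 against 23.3, 26.9 and 24.3. NDUFS1, the largest subunit, had 7.98, 7.73 and 7.09 FPKM in WT and 6.95, 7.40 and 7.75 in K29Q. It overlaps EEF1B2, a translation factor at 149.4 FPKM on the opposite strand, and how reads were split was not tested. NDUFS7, an iron–sulfur subunit next to the ubiquinone site, had a log2 difference of −0.09 (95% confidence interval −0.30 to 0.12), and NDUFS3 had 0.05 (−0.11 to 0.20).

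The accessory subunits of the distal membrane arm, named NDUFB, held the gene with the largest difference. Of 11, 9 lay below 0 and 2 above, with a median of −0.07, and 0 passed over all genes by limma (3 had an unadjusted p under 0.05, all lower). Of all genes, 49.0% lay below 0 and 4.89% were lower at that level. NDUFB9, a subunit that contacts the acyl carrier protein, had 40.9, 31.6 and 43.1 FPKM in WT and 29.1, 28.9 and 27.7 in K29Q. The K29Q libraries lay close together below all WT libraries, and WT 2 was nearer to K29Q than to the other WT libraries. The K29Q mean was 0.742 of the WT mean and the log2 difference −0.41 (SE 0.115, 95% confidence interval −0.68 to −0.13, limma adjusted p = 0.331), with −0.12 within run A, where WT 2 was the only WT library, and −0.58 within run B. NDUFB9 (ENSG00000147684, chromosome 8) overlaps TATDN1, which had 5.21 FPKM on the opposite strand.

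NDUFB10 had 46.4, 51.7 and 47.6 FPKM in WT and 41.4, 44.8 and 40.3 in K29Q. The groups did not overlap (0.868 of the WT mean, log2 difference −0.20, SE 0.070, 95% confidence interval −0.37 to −0.03, limma adjusted p = 0.378), with −0.26 within run A and −0.22 within run B. NDUFB6 had 37.1, 37.9 and 34.0 FPKM in WT and 30.8, 34.1 and 32.0 in K29Q, where WT 3 and K29Q 2 overlapped by less than 0.1 FPKM (−0.17, limma adjusted p = 0.397). NDUFB3 varied most in K29Q, with 19.0, 21.3 and 29.5 FPKM against 22.7, 23.4 and 21.2 in WT. NDUFB7 had 82.7 ± 5.84 and 85.2 ± 5.37 FPKM (SD, n = 3 each). The other 6, NDUFB1, NDUFB2, NDUFB4, NDUFB5, NDUFB8 and NDUFB11, had log2 differences from −0.16 for NDUFB2 to −0.04 for NDUFB5. NDUFB10 (ENSG00000140990) lies on chr16:1959508-1961975, plus strand, and NDUFB6 (ENSG00000165264) on chr9:32552999-32573184, minus strand.

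All 9 accessory subunits of the proximal membrane arm lay below 0, as did 49.0% of all genes. Their median log2 difference was −0.11, and 0 passed over all genes by limma (1 had an unadjusted p under 0.05). After GC and length correction 8 of the 9 lay below 0, with a median of −0.05. NDUFC2 had 35.6, 36.1 and 40.1 FPKM in WT and 32.7, 33.9 and 31.0 in K29Q. The groups did not overlap (−0.19, SE 0.070, 95% confidence interval −0.36 to −0.02, limma adjusted p = 0.388), with −0.11 within run A and −0.28 within run B. The read-through model NDUFC2-KCTD14 at the same locus had 2.21, 0.920 and 1.28 FPKM in WT and 1.07, 0.528 and 2.87 in K29Q, and reads may be divided between them. NDUFC2 (ENSG00000151366) lies on chr11:78068304-78080219, minus strand.

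NDUFS5, the most abundant nuclear transcript, had 382.0, 413.9 and 423.6 FPKM in WT and 361.2, 390.5 and 362.4 in K29Q. WT 1 and K29Q 2 overlapped, and the log2 difference was −0.13 (SE 0.065, limma adjusted p = 0.447). NDUFA13, also known as GRIM-19, had 25.3, 29.9 and 26.3 FPKM against 23.8, 26.0 and 25.6, and its groups overlapped. The other 6, NDUFA1, NDUFA3, NDUFA8, NDUFA10, NDUFA11 and NDUFC1, had log2 differences from −0.12 for NDUFA3 to −0.04 for NDUFA10.

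The 9 accessory subunits of the matrix arm had 7 genes below 0 and 2 above, with a median of −0.06 and 0 passing over all genes by limma (0 had an unadjusted p under 0.05). NDUFA7 had 15.1, 18.0 and 15.5 FPKM in WT and 14.5, 14.2 and 14.1 in K29Q, with no overlap between the groups (−0.17, SE 0.077, limma adjusted p = 0.422). WT 2 was the highest library, and the NDUFA7 difference was −0.09 without it, −0.31 within run A, −0.11 within run B and −0.10 after GC and length correction. It overlaps RPS28, a ribosomal protein gene at 387.3 FPKM on the opposite strand, and how reads were split was not tested. NDUFA5 was the complex I gene with the largest difference above 0, at 3.73, 3.04 and 3.12 FPKM in WT and 3.70, 3.80 and 3.77 in K29Q. WT 1 lay with the K29Q libraries, and the log2 difference of 0.15 (SE 0.079, limma adjusted p = 0.464) turned to −0.04 after GC and length correction. Its longest transcript had a GC content of 35.0%, the lowest of the 50 genes. NDUFS4, which is needed for a stable NADH module, was nearly level, with 26.4, 26.9 and 26.0 FPKM against 25.8, 26.4 and 26.4 (95% confidence interval of the log2 difference −0.14 to 0.11).

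NDUFA4, first described with complex I and now placed in cytochrome c oxidase, had 25.3, 28.5 and 23.2 FPKM in WT and 22.5, 25.8 and 23.0 in K29Q. The groups overlapped, at a log2 difference of −0.10 (SE 0.092, limma adjusted p = 0.649). For NDUFA4 it was −0.03 without WT 2, −0.07 without K29Q 1, −0.17 without WT 3 and −0.16 without K29Q 2. It was −0.23 within run A, −0.07 within run B and −0.18 after GC and length correction.

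The 6 assembly factors divided evenly, with 3 below 0 and 3 above, and 0 passed over all genes by limma (1 had an unadjusted p under 0.05). NDUFAF2, a relative of the subunit NDUFA12 that binds a late intermediate, had 19.2, 18.7 and 19.4 FPKM in WT and 17.5, 16.1 and 15.8 in K29Q. The groups did not overlap, at a log2 difference of −0.20 (SE 0.063, 95% confidence interval −0.35 to −0.06, limma adjusted p = 0.354), with −0.15 within run A and −0.28 within run B. NDUFAF7, a methyltransferase of the matrix, had the next smallest p and lay above 0, with 3.11, 2.71 and 2.83 FPKM in WT and 2.93, 3.30 and 3.15 in K29Q. NDUFAF4, an early assembly factor, had 6.04, 5.74 and 5.77 against 5.88, 6.86 and 6.09. NDUFAF2 (ENSG00000164182) lies on chr5:60945129-61153037, plus strand.

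**Figure D4:**
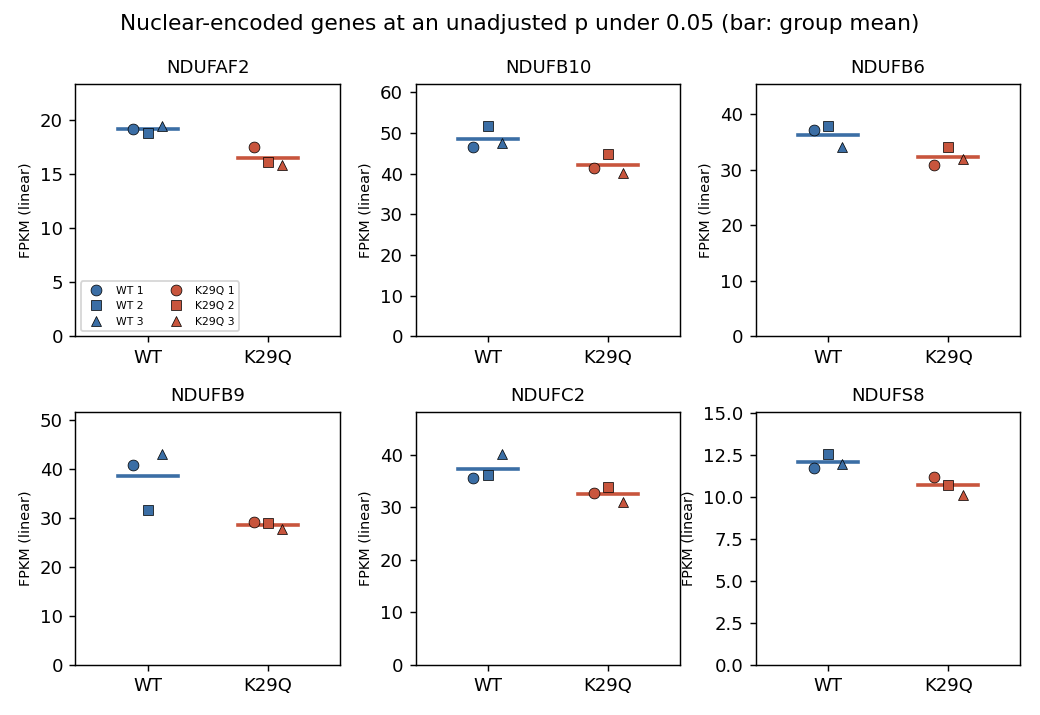
FPKM (y axis, linear, from 0) in each library of the 6 nuclear-encoded complex I genes at an unadjusted p under 0.05; blue marks are WT, red marks K29Q, the shape gives the replicate number and the bar the group mean. All 6 have a lower K29Q mean, and in NDUFB9 the WT 2 library at 31.6 lies apart from the other WT libraries at 40.9 and 43.1.

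The genes with promoter motifs shown above covered a range of differences. The 6 with AAGATGGCG had log2 differences from −0.17 for NDUFA7 through −0.09 for NDUFS7 and −0.07 for NDUFB8 and NDUFA9 to −0.013 for NDUFS4, while NDUFA6 had 42.1 FPKM in both groups. The 5 with GCGCATGCG ran from −0.15 for NDUFS6 to 0.15 for NDUFA5, and included the NDUFS7 value, NDUFA8 at −0.11 and NDUFB4 at −0.07. None of these 10 genes was among those at an unadjusted p under 0.05 (limma), where 12.5% of all genes stood. With 10 genes, such a count cannot be told apart from that share.

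Over the 43 nuclear genes, 34 lay below 0 (79.1%), and their median log2 difference was −0.07. The median in each library, relative to the WT mean of each gene, was −0.03, 0.03 and −0.006 in WT 1 to 3 and −0.09, −0.04 and −0.10 in K29Q 1 to 3. The groups did not overlap, but WT 1 and K29Q 2 nearly touched. Without WT 1 the median was −0.09 with 35 genes below 0, and without WT 2 it was −0.04. After scaling to the genes outside the mitochondrial genome it was −0.04 with 31 below 0. That scaling also moved all genes, to a median of 0.03 with 5365 of 13261 below 0. Within run A the nuclear median was −0.09 and within run B −0.07.

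GC content and length moved with the difference across all genes, so their values stand beside this median. The median log2 difference of all genes was 0.15 at a GC content up to 40% and −0.05 above 60%, and 0.04 for genes with a longest transcript over 4000 nt against −0.02 under 1000 nt. The nuclear complex I genes had a median GC content of 48.2% and a median length of 1426 nt, against 49.7% and 3247 nt for all genes tested. Within the class of 40 to 50% GC, 21 complex I genes had a median of −0.07 where all genes had 0.03, and within 50 to 60%, 12 had −0.11 where all genes had −0.04. In the class over 60% the values nearly met, with −0.06 for 6 complex I genes and −0.05 for all genes. The 4 complex I genes up to 40% had a median of 0.02, below the 0.15 of all genes there. After correction for both, 33 of 43 lay below 0 with a median of −0.05, and all genes had −0.005. The corrected medians of the nearest libraries were −0.037 in WT 1 and −0.038 in K29Q 2, so that the groups were barely apart.

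**Figure D5:**
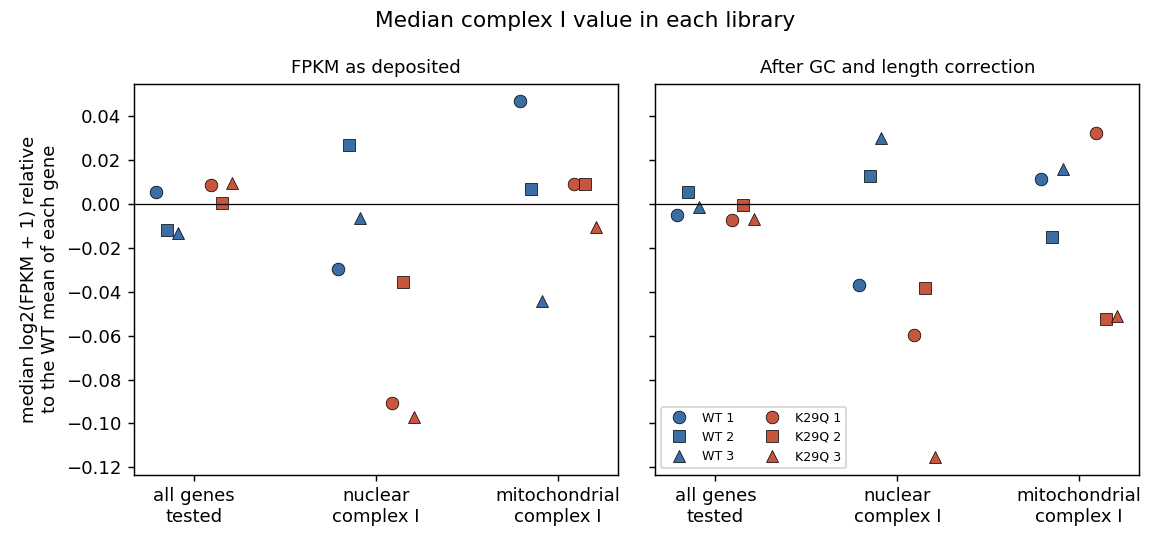
Median log2(FPKM + 1) relative to the WT mean of each gene (y axis) in each library, for all genes tested, the 43 nuclear and the 7 mitochondrial complex I genes (x axis), as deposited (left) and after GC and length correction (right); blue marks are WT, red marks K29Q, and the shape gives the replicate number. The nuclear medians of K29Q run from −0.10 to −0.04 as deposited, with WT 1 at −0.03 next to K29Q 2.

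Other genes that serve complex I were read from lists by role. Of 13 assembly factors and related genes outside the naming rule, 8 lay below 0 and 5 above, and 0 passed by limma (0 had an unadjusted p under 0.05). ECSIT, a factor of the membrane arm, had 6.75, 6.52 and 6.77 FPKM in WT and 7.49, 7.48 and 7.27 in K29Q (log2 difference 0.13, limma adjusted p = 0.401). NDUFAF8, the partner of NDUFAF5, stood in the table under its older symbol C17orf89, so it was outside the rule, and it is not counted among the 13. It had 34.4, 36.2 and 35.4 FPKM in WT and 26.4, 31.8 and 30.3 in K29Q, without overlap (−0.26, SE 0.079, limma unadjusted p = 0.014, adjusted p = 0.354). NDUFAB1, the acyl carrier that is also a subunit, had 44.5 ± 3.69 and 41.5 ± 1.36 FPKM (SD, n = 3 each).

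Of 26 measured genes of mitochondrial transcription and RNA stability, 15 lay above 0 and 11 below, and 0 passed by limma (1 had an unadjusted p under 0.05). That one was FASTKD1, a mitochondrial RNA-binding protein, with 4.72, 4.36 and 4.01 FPKM in WT and 5.43, 4.86 and 5.70 in K29Q (0.24, limma adjusted p = 0.371). LRPPRC, which stabilises mitochondrial messenger RNAs, had 21.2, 16.8 and 16.2 FPKM in WT and 21.3, 20.2 and 21.9 in K29Q, with WT 1 again at the K29Q level. Of 9 measured nuclear regulators of respiratory genes, 6 lay below 0 and 3 above, and 0 passed by limma (1 had an unadjusted p under 0.05). ESRRA, a nuclear receptor that drives respiratory genes, had 15.8, 11.1 and 19.1 FPKM in WT and 11.3, 10.2 and 9.59 in K29Q, where WT 2 lay within the K29Q range (−0.50, SE 0.178, limma adjusted p = 0.380). The ESRRA difference was −0.045 within run A and −0.80 within run B. Of 13 genes of ubiquinone synthesis, 9 lay below 0 and 4 above, and 0 passed by limma (0 had an unadjusted p under 0.05).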

How the data were processed

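RNA of 6 HCT116 libraries, 3 per group, was sequenced, and the deposited gene table holds FPKM values that the authors computed. HISAT2 2.1.0, StringTie and GRCh38 are named in the submitters' processing notes; for the StringTie version, gene annotation, strand option and read counts, nothing is given in the sources used here. Columns were matched to samples by name, and 0 columns of other samples were present.

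The 13261 genes that reached an FPKM of 1 in 3 or more of the 6 libraries were compared on log2(FPKM + 1), which understates the change of low genes, with limma 3.58.1 (R 4.3.3, trend on mean level, group as the only term, two-sided) and Benjamini-Hochberg adjustment over all of them. The script was tested on simulated data. Positions, GC content and length of the longest transcript came from GENCODE 29 (GRCh38), and promoters from RefSeq; after a first search the YY1 and NRF1 motifs were each shortened by 1 base, which raised their counts. The GC and length correction fitted a spline with 4 degrees of freedom for each property in each library, over 13108 genes. Values within a sequencing run are differences of means with no test.

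The complex I genes and all lists were chosen with earlier results of these data known. Named were all MT-ND genes, the nuclear core subunits (1 gene is counted with its group but not reported here), genes at an unadjusted p under 0.05, the 6 largest differences in each direction, NDUFA4, the genes around the FPKM threshold, the 2 assembly factors of smallest p, genes that set a range, and up to 2 genes per further list. NDUFA13, NDUFB3, NDUFS4, NDUFAF8, NDUFAB1, the nuclear copies and the read-through gene were added after their values were seen. Alternatives changed the scaling, pseudocount (0.1), filter, run or replicate terms, GC and length correction, and left out each library.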

Additional observations from a re-analysis of the deposited data

How the results depend on the processing

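No complex I gene passed the adjusted threshold in any of the 17 limma fits run, the smallest adjusted p being 0.121 (NDUFA5, without WT 1). The number of genes called over all genes, 7 in the reported fit, was 13 after quantile normalization, 2 with no filter, 4 with a sequencing run term, 83 after GC and length correction, and 5 to 20 when 1 library was left out (20 without WT 1, 12 without K29Q 1). Complex I genes at an unadjusted p under 0.05, 7 as reported, were 4 after quantile normalization and 2 to 10 with 1 library left out. The 10, without WT 1, were 9 lower and 1 higher. After GC and length correction 7 were lower and 1 higher. With that correction and a run term, or a replicate block, 9 were lower. The share of all genes lower at that level moved too. It was 4.89% as reported, 5.70% after quantile normalization and 2.99% to 6.07% with 1 library left out. After GC and length correction it was 7.93%, with a run term added 8.09% and with a replicate block added 7.75%. The median of the nuclear genes stayed below 0 in all settings. After scaling to the genes outside the mitochondrial genome it was −0.039, where that of all genes moved from 0.003 to 0.032. With 1 library left out the nuclear median ran from −0.095 to −0.040 (−0.040 without WT 2). The median of the MT-ND genes, −0.014 as reported, changed sign with the setting. It was 0.021 after that scaling, −0.049 after GC and length correction and 0.034 within run A. With 1 library left out it ran from −0.057 to 0.043. The cause of these shifts was not tested.

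Same-numbered libraries did not deviate together (correlations of −0.14, 0.18 and −0.16), so the numbers were not taken as pairs. With the replicate number as a block, 3 genes passed over all genes and 4 complex I genes stood at an unadjusted p under 0.05, all lower. At that level 3.3% of all genes were lower, against 4.89% as reported. The medians were the same, which the design fixes because each number holds 1 library of each group. With GC and length correction and the replicate block together, 1 gene passed. The MT-ND median was −0.049, for the same reason equal to its value without the block.

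Some single genes changed sign, among them NDUFA5, which had the largest difference above 0 as reported. After scaling to the genes outside the mitochondrial genome MT-ND6 was at 0.021. With a run term MT-ND5 was at 0.0082, MT-ND6 at 0.0044 and NDUFV2 at −0.031. After GC and length correction, with or without the replicate block, NDUFA5 was at −0.043, NDUFAF4 at −0.053 and NDUFV2 at −0.050. With that correction and a run term NDUFA5 was at −0.057, NDUFAF4 at −0.080 and NDUFV2 at −0.10. Within run A MT-ND5 was at 0.10, MT-ND6 at 0.075 and NDUFV2 at −0.11, and within run B NDUFS1 at 0.038, NDUFS3 at −0.00089 and NDUFV1 at 0.0088. With 1 library left out the ranges were −0.11 to 0.043 for MT-ND5, −0.057 to 0.015 for MT-ND6, −0.11 to 0.020 for NDUFV1 and −0.097 to 0.079 for NDUFV2. Depth is unknown, so counting error in low genes could not be set beside these values.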
